A study of Caenorhabditis elegans with 2 samples.

Results

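The cytosolic chaperonin CCT (also called TRiC) is a double-ring protein complex that closes over unfolded proteins and releases them folded, driven by ATP. Each ring holds one copy of each of its subunits, and in Caenorhabditis elegans these are encoded by the 8 genes cct-1 to cct-8. Its best known clients are actin and tubulin, and prefoldin is the co-chaperone that hands them over. The 8 genes, of 19973 protein-coding genes on the 6 nuclear chromosomes, are described here for where C04F5.9, annotated in RefSeq as a protein with a zinc finger domain of the C2H2 type, was found at their 5′ ends. They were selected on measured values of these same data, since the peaks at cct-8 and cct-1 were already known to be among the strongest of the list. Those ranks are therefore given as a description, with no test.

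The animals were of strain OP525, which carries unc-119(tm4063) III and the integrated transgene wgIs525, encoding C04F5.9 with GFP-FLAG at its C terminus. Hermaphrodite L1 larvae, synchronised by starvation after bleaching, were used whole 6 hours after that step. Sonicated chromatin was precipitated with an antibody to GFP in 2 biological replicates of this 1 strain, which form 1 group, and there was no second condition. Both replicates carry the mutation and the tagged protein, and the promoter of the transgene is not given in the sources used here. A strong peak in whole larvae can come from many cells with some binding or from few cells with much, and these cannot be told apart. The data are the authors' region lists in the ce11 assembly. The optimal list, filtered for agreement of the replicates, holds 1205 peaks, and relaxed lists hold 30000 regions for both replicates combined, 30000 for replicate 1 and 28005 for replicate 2. Each region has a signal value in the authors' own units, compared here only within a list. Read depth is unknown.

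All 8 subunit genes had a region of the combined list with its summit within 1000 bp of a 5′ end, and 4 of the 8 had an optimal peak there. Over all protein-coding genes, 50.3% had such a combined-list region and 6.89% such an optimal peak. Within 500 bp the optimal count was again 4 of 8, beside 5.51% of all genes. The values of cct-8 and cct-1 entered the choice of genes, so nothing is read from these counts. The 4 genes with optimal peaks spanned nearly the whole list. The gene for the theta subunit, cct-8, lay at rank 1, and that for the alpha subunit, cct-1, at rank 5. The genes for the zeta subunit, cct-6, and the epsilon subunit, cct-5, lay at ranks 897 and 1199 of 1205. The best regions of cct-4, cct-7, cct-2 and cct-3, for the delta, eta, beta and gamma subunits, lay in the combined list alone, at ranks 2209, 2578, 8928 and 11066.

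The sequences around the optimal summits of the 4 genes are shown because the match to one element, described further on, differs most between them. Each runs 100 bases to either side of the summit, except that the cct-6 window stops before the neighbouring gene alh-9. Capitals mark the bases that match the first block of that element at its best position in the window. Coordinates are ce11.
cct-8, chrIV:1094262-1094462, plus strand: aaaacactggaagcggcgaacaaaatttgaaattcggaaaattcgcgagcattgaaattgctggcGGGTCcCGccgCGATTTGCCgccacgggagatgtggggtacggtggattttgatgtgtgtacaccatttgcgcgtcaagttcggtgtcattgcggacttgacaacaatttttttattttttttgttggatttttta
cct-1, chrII:8185107-8185307, plus strand: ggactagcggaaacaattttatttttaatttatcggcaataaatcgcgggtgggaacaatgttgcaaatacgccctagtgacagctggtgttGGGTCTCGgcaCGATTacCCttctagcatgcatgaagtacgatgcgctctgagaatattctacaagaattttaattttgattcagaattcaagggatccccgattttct
cct-6, chrIII:5855881-5856017, plus strand: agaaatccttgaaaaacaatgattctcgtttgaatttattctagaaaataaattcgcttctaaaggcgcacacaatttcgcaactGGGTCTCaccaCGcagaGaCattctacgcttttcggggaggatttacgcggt
cct-5, chrIII:4508488-4508688, plus strand: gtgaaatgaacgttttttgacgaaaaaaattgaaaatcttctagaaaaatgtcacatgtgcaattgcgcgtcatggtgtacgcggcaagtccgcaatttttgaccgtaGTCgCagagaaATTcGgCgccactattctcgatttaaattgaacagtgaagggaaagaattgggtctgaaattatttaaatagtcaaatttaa

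The cct-8 peak was the strongest region of every list. The gene (WBGene00021934) lies on the minus strand of chromosome IV, from 1087108 to 1093920. The region ran from 1093959 to 1094797, 839 bp wide against a median of 384 bp, with its summit at 1094362 in intergenic sequence. Its signal was 20846 in replicate 1 and 8845 in replicate 2, rank 1 in both, and 29681 in the combined list. The summits of the replicates were 1 bp apart, at 441 and 442 bp upstream. The cct-8 peak alone held 8.32% of the summed signal of the 1205 optimal peaks. Y55F3AR.2, on the opposite strand, starts 621 bp from the cct-8 5′ end and was nearer to the summit, at 179 bp. The 5′ end of the non-coding RNA gene Y55F3AR.4 was 275 bp from the summit. Only 2 genes, 0.01% of all protein-coding genes, ranked at least as high, and these are cct-8 and Y55F3AR.2 with this same peak. The other combined-list regions near a 5′ end of cct-8 were weak, at ranks 9036, 22562 and 27468, and all 3 lay downstream, in introns or coding sequence.

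The cct-1 peak was next among the subunits. The gene (WBGene00000377) lies on the plus strand of chromosome II, from 8185443 to 8187601. The region ran from 8184863 to 8185596, 734 bp wide, with an intergenic summit at 8185207. Its signal was 14562 in replicate 1 and 6567 in replicate 2, rank 5 in both, and 21100 in the combined list, and it held 5.91% of the summed optimal signal. The replicate summits were again 1 bp apart, the one of replicate 1 at 234 bp upstream. The gene mig-5, which encodes a Dishevelled protein of Wnt signalling, starts on the other strand 420 bp from the cct-1 5′ end, and was 184 bp from the summit against 236 bp for cct-1. No other region of any of the 4 lists had its summit within 1000 bp of the cct-1 5′ end.

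Both strong peaks were far above those of the other 6 subunits in each replicate. In replicate 1, cct-8 was 324 times and cct-1 227 times as high as cct-6, the highest of the other 6, whose signal was 64.28. In replicate 2 they were 229 and 170 times as high as cct-5, then the highest of the 6 at 38.63. Between the strong pair the ratio of cct-8 to cct-1 was 1.43 in replicate 1 and 1.35 in replicate 2. The other 6 genes had signals of 15.87 to 64.28 with a median of 36.58 in replicate 1, and of 8.48 to 38.63 with a median of 16.96 in replicate 2. No value of the 6 came near cct-8 or cct-1 in either replicate, while their own order changed between the replicates, as the plot of signal against rank shows. The neighbours of the strong pair in rank were the peaks at gmps-1 and cap-2 (rank 2, 25161), nra-2 and lin-53 (rank 3, 22756), Y25C1A.8 (rank 4, 22458), lin-9 (rank 6, 19199) and sec-24.1 (rank 7, 14869). They too kept their ranks in both replicates.

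**Figure D1:**
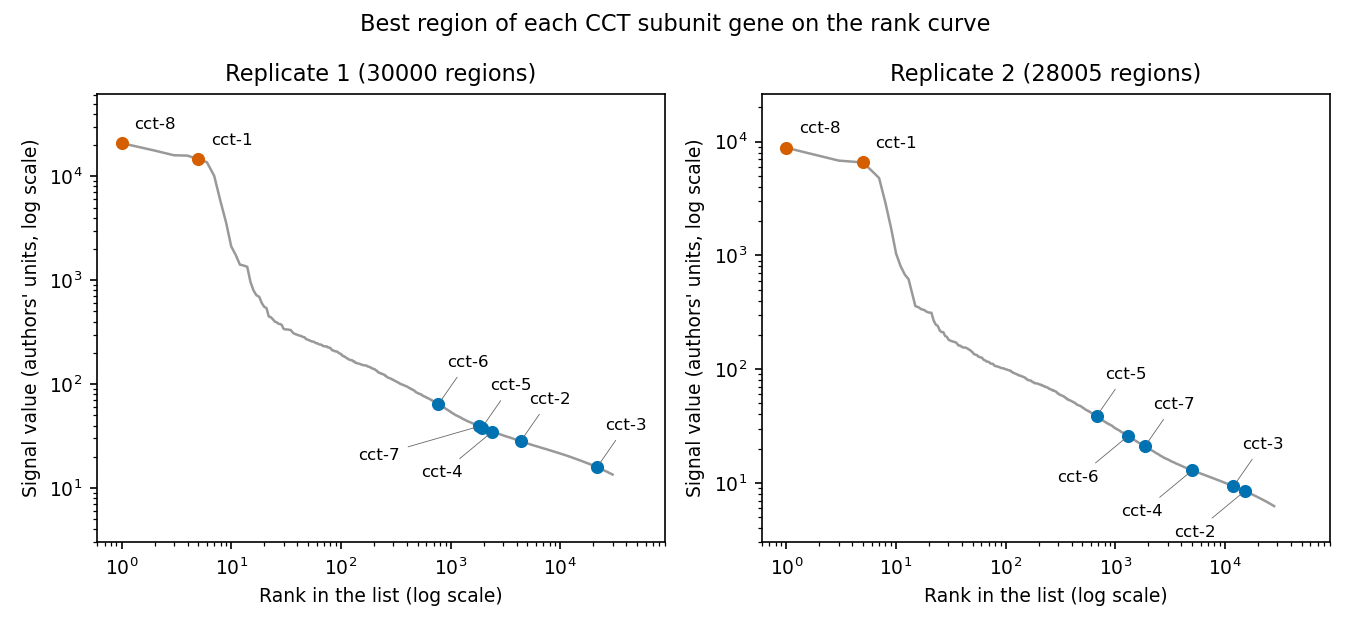
Signal of the best region within 1000 bp of each subunit gene against its rank, in replicate 1 (left) and replicate 2 (right), both axes logarithmic. The grey line is the whole list of that replicate, orange points are cct-8 and cct-1 and blue points the other 6 subunits; cct-8 and cct-1 sit at ranks 1 and 5 on the steep head of each curve, and the blue points on its long tail, from rank 776 down in replicate 1 and from rank 673 down in replicate 2.

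Of the 2 weaker optimal peaks, that of cct-6 (WBGene00000381, chromosome III, minus strand, 5853530 to 5855687) was the more even. Its signal was 64.28 (rank 776) in replicate 1 and 25.9 (rank 1307) in replicate 2, and 87.58 in the combined list. Its summits were 285 and 274 bp upstream, and the combined summit at 5855981 was 294 bp upstream of cct-6 and 37 bp upstream of the nearest annotated 5′ end of alh-9, an aldehyde dehydrogenase gene on the other strand. The cct-5 peak (WBGene00000380, chromosome III, minus strand, 4499188 to 4508114) ranked 1937 in replicate 1, with signal 38.26, and 673 in replicate 2, with signal 38.63. Its combined signal was 72.53, just above the last optimal peak at 72.21, with 72.18 for the first region left out. The replicate summits were 61 bp apart, 483 and 422 bp upstream, and F25F2.1 on the other strand was nearer to the combined summit, at 267 bp against 474 bp. Among all protein-coding genes, 5.38% ranked at least as high as cct-6 and 6.87% at least as high as cct-5.

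The next pair, cct-4 and cct-7, also had upstream regions between opposite genes, below the optimal list. For cct-4 (WBGene00000379, chromosome II, 8283667 to 8285711, plus strand) the signal was 34.9 (rank 2404) in replicate 1 and 12.92 (rank 5027) in replicate 2, with summits 240 and 261 bp upstream. The combined summit was 257 bp from cct-4 and 202 bp from nst-1, which encodes a nucleostemin-like GTPase. For cct-7 (WBGene00020391, chromosome V, 1872246 to 1875505, plus strand) the best region differed between the replicates. Replicate 1 had a signal of 39.27 (rank 1823) at 463 bp downstream, in coding sequence, and 33.66 (rank 2670) at 277 bp upstream, and replicate 2 had 21.01 (rank 1857) at 232 bp upstream. The combined list placed the upstream region first, 297 bp from cct-7 and 142 bp from T10B5.4, at rank 2578 with signal 47.32. The nearest 5′ end to that summit was that of the non-coding RNA gene T10B5.13, at -31 bp, and the replicate 2 summit lay inside T10B5.13. The downstream one came second, at rank 3717. Among all protein-coding genes, 10.9% ranked at least as high as cct-4 and 12% at least as high as cct-7.

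The 2 lowest subunits, cct-2 and cct-3, had their best regions downstream of the 5′ end in the combined list. The best combined region of cct-2 (WBGene00000378, chromosome II, 8927741 to 8929815, plus strand) had signal 29.4 at 817 bp downstream, inside the coding sequence. Replicate 1 had 28.27 (rank 4364) at 20 bp downstream and replicate 2 had 8.48 (rank 15107) at 273 bp upstream, so the 3 lists gave 3 positions. For cct-3 (WBGene00018782, chromosome II, 2233540 to 2243539, plus strand) the best combined region had signal 27.22, 117 bp downstream, in an intron. It had signal 15.87 (rank 21663) in replicate 1 and 9.36 (rank 11926) in replicate 2, at 122 and 183 bp downstream, so its place was much the same in the 3 lists while its rank was not. Medians of the combined, replicate 1 and replicate 2 lists were 24.32, 18.55 and 8.77, and the farthest of these signals from its list's median was the 28.27 of cct-2 in replicate 1. The −log10 q value deposited by the authors was 0.18 for cct-2 and 0.13 for cct-3 in the combined list. At cct-8, cct-1, cct-6 and cct-5 it was 2.93, the highest value of that list. It was 1.40 for cct-4 and 1.13 for cct-7. At the edge of the 1000 bp rule, the farthest regions of the combined list that counted were at -934 bp (cct-3), -940 bp (cct-6) and -942 bp (cct-7), and the nearest left out were at 1068 bp (cct-4), 1137 bp (cct-1) and 1206 bp (cct-5), with ranks between 3808 and 27876.

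**Figure D2:**
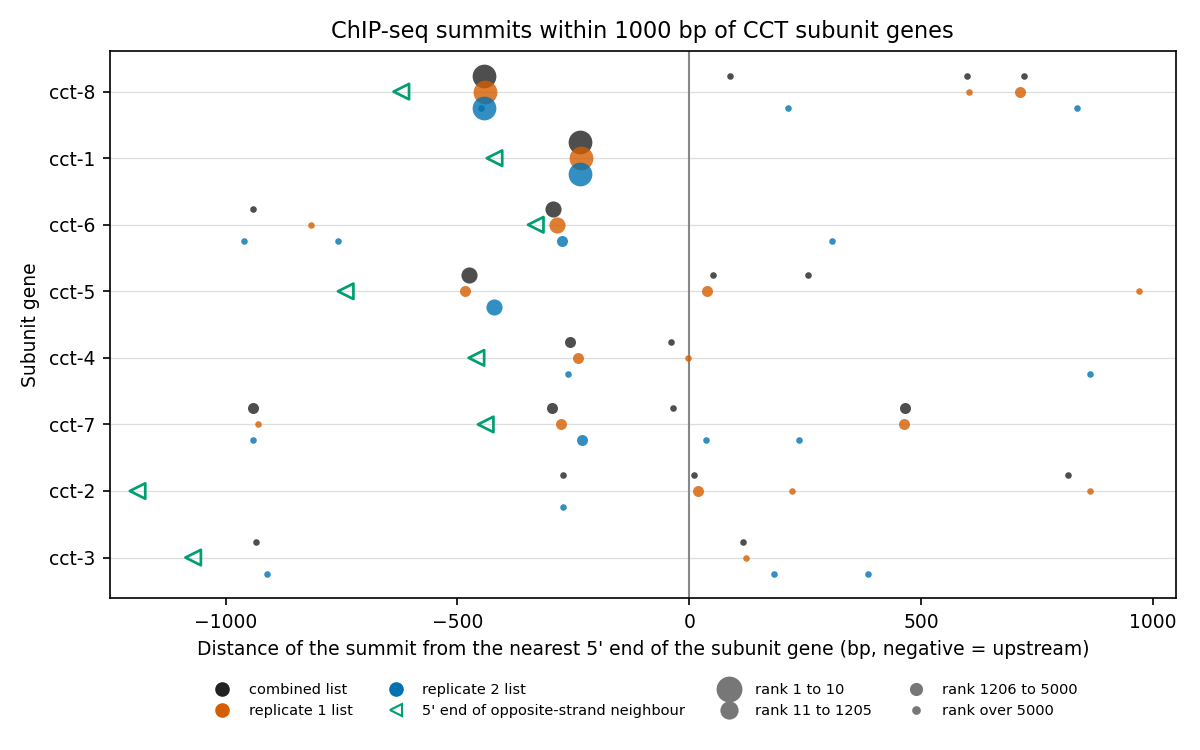
Summits within 1000 bp of the 5′ ends of the 8 subunit genes, ordered from the highest combined signal at the top, by distance in bp from the nearest 5′ end of the gene (negative is upstream). Black, orange and blue points are the combined, replicate 1 and replicate 2 lists, point size is the rank class, and green triangles are the 5′ ends of the opposite-strand neighbours; the strongest points of cct-8, cct-1, cct-6, cct-5 and cct-4 stack in all 3 lists between the 2 genes, while those of cct-2 are small and lie apart, and those of cct-3 are small and lie together downstream.

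The 5′ ends of most subunit genes faced a neighbour. In 6 of the 8, all but cct-2 and cct-3, an opposite-strand protein-coding gene started within 1000 bp upstream, at 331 bp (cct-6) to 741 bp (cct-5), and all 4 genes with optimal peaks were among these 6. Over all protein-coding genes the arrangement was found in 18.3%, of which 19.6% had an optimal peak within 1000 bp, against 4.05% of the other genes. For cct-2 and cct-3 the neighbours B0457.2 and F54A3.6 start 1190 and 1070 bp away. In all 6 close pairs the best combined summit between the ends was nearer to the neighbour than to the subunit gene, by as little as 52 bp or as much as 263 bp. The same share over all such genes was not counted, so nothing is read from this. Weaker second summits between the ends lay nearer the subunit gene at cct-4 (40 bp upstream, rank 14161) and cct-7 (36 bp upstream, rank 12814). The lists assign no gene to a summit, and whether either gene of a pair responds to C04F5.9 was not tested.

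The strongest peaks of the list shared an element, and cct-8 and cct-1 held versions of it. The element was built from the 8 peaks among the 10 strongest that were not those of cct-8 and cct-1, after the data had been seen. Its first block is GGGTCTCG, then 3 free bases, then CGATTTGCC, which makes 17 fixed positions in 20. Its second block, GGTACGGTNGA with 10 fixed positions, follows after 16 bases. Each fixed letter stood in at least 6 of the 8 peaks in the first block and in at least 5 of the 8 in the second. Both strands were searched within 100 bp of each summit. The segments below show the 4 subunit genes whose windows matched the first block at 11 or more of 17 positions. The other subunits, at 9 or 10 positions, are not shown. Beside them are some of the peaks from which the element was built, with letters of the element in capitals. The ceh-38 peak, at 14 of 17 positions, is among the building peaks not shown.
gmps-1, chrII:10868935-10868981, plus strand: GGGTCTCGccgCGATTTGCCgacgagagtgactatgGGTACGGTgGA
Y25C1A.8, chrII:3077095-3077141, plus strand: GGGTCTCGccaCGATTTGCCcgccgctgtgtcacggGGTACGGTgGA
lin-9, chrIII:8904269-8904315, plus strand: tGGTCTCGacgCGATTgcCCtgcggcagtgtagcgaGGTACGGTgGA
sec-24.1, chrIV:11566316-11566362, minus strand: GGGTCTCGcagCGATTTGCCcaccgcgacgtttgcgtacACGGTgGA
T14G11.1, chrX:2688728-2688774, plus strand: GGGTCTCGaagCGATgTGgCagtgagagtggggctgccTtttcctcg
cct-8, chrIV:1094327-1094373, plus strand: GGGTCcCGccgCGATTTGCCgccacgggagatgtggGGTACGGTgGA
cct-1, chrII:8185199-8185245, plus strand: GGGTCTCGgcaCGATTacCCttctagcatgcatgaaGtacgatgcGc
cct-6, chrIII:5855966-5856012, plus strand: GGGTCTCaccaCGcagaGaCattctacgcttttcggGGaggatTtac
cct-4, chrII:8283417-8283463, plus strand: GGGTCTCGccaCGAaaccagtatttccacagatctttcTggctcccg

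At cct-8 the element was nearly complete. The first block matched at 16 of 17 positions, and the second block at 10 of 10 after the same 16 bases. The single difference was T6C, with positions counted from 1 at the 5′ end of the block and the element's base first. The block was centred 25 bp from the summit, and read in the direction of Y55F3AR.2, away from cct-8. At cct-1 the first block matched at 15 of 17 positions, with the differences T17A and G18C. It was centred 1 bp from the summit and read towards cct-1. Its second block was poor, with 2 of 10 positions after 16 bases and 6 of 10 after 15 bases. The lin-9 segment also differed from the element at positions 17 and 18, as T17G and G18C, but had the second block at 10 of 10. A poor second block was also found at 3 of the 8 peaks that gave the element, with 1 of 10 positions at T14G11.1, 2 at ceh-38 and 3 at tag-353.

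The other subunits matched no better than many promoters. The first block reached 11 of 17 positions at cct-6 and cct-4, 10 at cct-7 and cct-2, and 9 at cct-5 and cct-3. The median best match was 10 over the 1205 optimal windows. It was 9 over windows of the same length, 201 bases, centred 150 bp upstream of each protein-coding gene. Over the 10 strongest peaks it was 16.5, in part by construction, since 8 of them gave the element. At least 11 positions matched in 22.7% of optimal windows and 11.6% of promoter windows. At least 15, the level of cct-1, matched in 1.33% of optimal windows and 0.0851% of promoter windows. The full left part GGGTCTCG stood in the windows of cct-1 and cct-4, in 5.31% of optimal windows and in 1.13% of promoter windows, and the cct-4 match stopped soon after it, with differences from T15A to C20G. The cct-6 match had all but the last letter of that part (G8A) and then lost the right part. The exact second block stood in the cct-8 window and in no other subunit's, in 0.747% of optimal windows and in 0.125% of promoter windows. The 8 peaks that gave the element are themselves among the optimal windows, so part of each optimal share above follows from its making. A match is a description of letters; whether C04F5.9 contacts them was not tested.

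**Figure D3:**
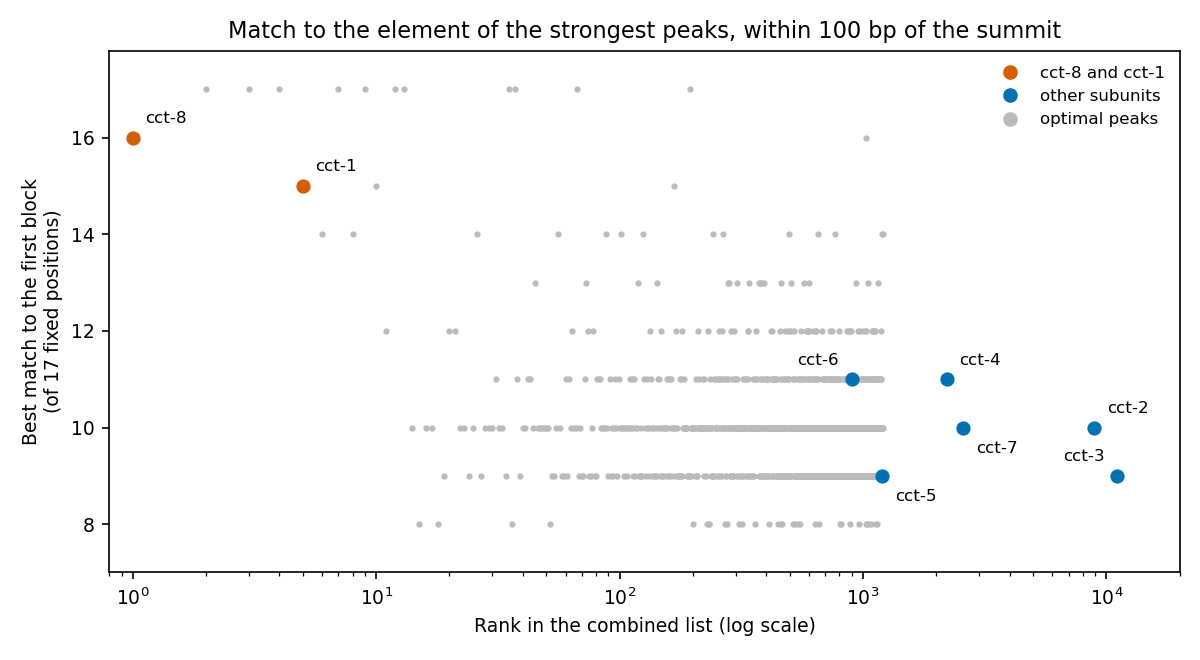
Best match to the first block of the element, in positions of 17, within 100 bp of the summit against rank in the combined list on a logarithmic axis. Grey points are the 1205 optimal peaks, orange points cct-8 and cct-1, and blue points the other 6 subunits. The 10 strongest peaks, with cct-8 at 16 and cct-1 at 15, are all at 14 or more. The element was built from 8 of these 10, so their level follows in part from its making. A match at 14 or more was also found at 20 optimal peaks below rank 10. The blue points lie at 9 to 11.

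Close matches to the first block were rare in the genome and often lay at optimal summits. Of 114 sites with at least 15 matching positions, 17 (14.9%) lay within 100 bp of an optimal summit. This was so for 14 of 31 sites (45.2%) with at least 16, the level of cct-8, and for 12 of 14 sites (85.7%) with all 17. The share was 0.425% for at least 11, the level of cct-6 and cct-4. With both blocks counted, 4 sites in the genome matched at 26 or more of 27 positions, and all 4 lay at optimal summits. One was cct-8, chosen with its peak known. The other 3, at gmps-1, nra-2 and Y25C1A.8, were peaks from which the element was built, so they lay at summits by construction. The element was taken from the strongest peaks, so part of this pattern follows from how it was made. The 10 strongest supplied 8 of the 17 peaks at 15 or more and 5 of the 12 at 17.

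**Figure D4:**
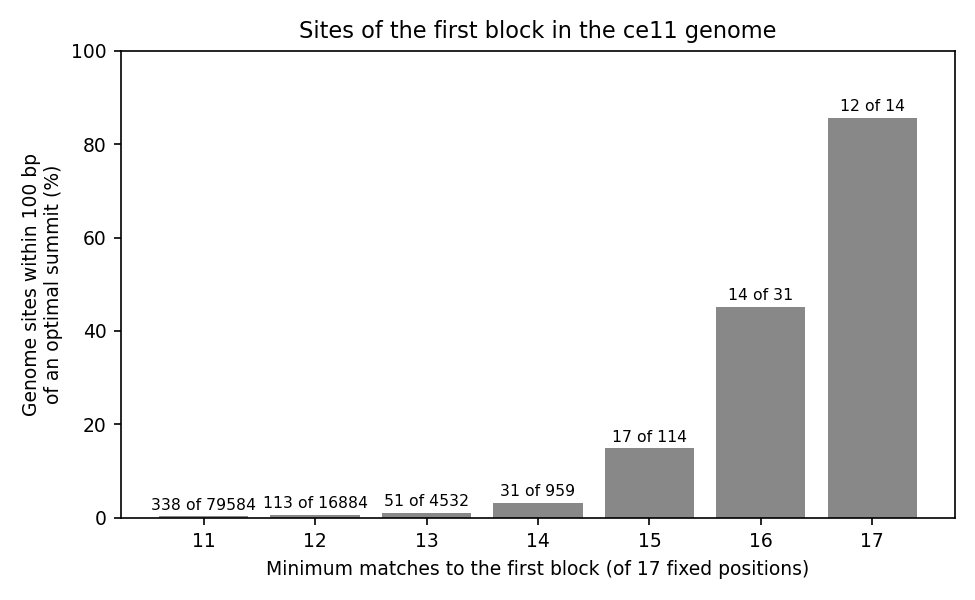
Share of the sites of the first block in the ce11 genome that lie within 100 bp of an optimal summit, in percent, by the minimum number of matching positions of 17. Numbers over the bars are sites near a summit of all sites; the share is 0.425% at 11 or more, 14.9% at 15 or more and 85.7% at 17.

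Other sequence features were compared over the same summits. The words AGACGCAG and GCAAACAC, known from earlier results to be frequent at summits of these data, were absent from all 8 subunit windows within 50 bp of the best summit, on either strand. They stood in 9.38% and 6.97% of optimal windows of that size, and in 1.48% and 1.12% of promoter windows. Absence says only that these letters are not in the windows. Within 50 bp of the summit, GC content was 56.4% at cct-8, 48.5% at cct-1, 55.4% at cct-7, 47.5% at cct-6 and cct-5, 42.6% at cct-4, 41.6% at cct-2 and 39.6% at cct-3. The optimal median was 47.5%, with quartiles of 41.6% and 52.5%, so cct-1 was close to the middle and a weak region, that of cct-7, nearly as GC-rich as that of cct-8. No word of 8 bases was shared by cct-8 and cct-1 within 50 bp of their summits. Within 100 bp they shared 8 words. Of these, AAATCGCG (2.9% of optimal and 0.656% of promoter windows) and AATCGCGG (1.08% and 0.235%) lie, on the other strand, in the first block of cct-8. In the cct-1 window both words lie outside its first block. The other shared words were AT-rich, such as AAAAATAA (17.7% and 16.4%).

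By shared words of 8 bases, the peaks most like cct-8 were again strong ones. Of the 94 words of its window of 50 bases to either side, 13 were shared with the gmps-1 peak (rank 2), 12 with each of the peaks at ranks 12 and 13 near F22D6.8, 11 with that of dolk-1 (rank 35) and 10 with that of Y25C1A.8 (rank 4), while 65.3% of optimal peaks shared none. The peaks most like cct-1 were weaker. They shared 7 words at the ribosomal protein genes rpl-38 (rank 634) and rpl-7 (rank 753), 6 at spat-1 (rank 550) and rps-7 (rank 820) and 5 at Y73B6BL.29 (rank 50), and 78.6% of optimal peaks shared none.

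A second stretch was common to cct-8 and cct-5. A run of 12 bases, attgcggacttg, stood 58 bp past the cct-8 summit, and on the other strand 9 bp from the cct-5 summit, as both printed windows show. It occurs 21 times in the genome, and 8 optimal peaks had it within 100 bp of their summit. Beside ranks 1 and 1199 these were at rpl-5 (rank 190), npp-19 (rank 399), hrpf-2 (rank 564), Y45F10D.7 (rank 819), mcm-4 (rank 994) and C52B9.4 (rank 1064). The run was found by comparing the subunit windows with each other, and has no test. It was not the longest run of any pair, since the weak regions of cct-2 and cct-7 shared 13 bases. That longer run stood in 5 promoter windows and 0 optimal windows.

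Genes that work with the chaperonin, and other genes listed for comparison, were looked up in the optimal list. Of the 6 prefoldin genes, whose products deliver clients to CCT, 5 had an optimal summit within 1000 bp. These were pfd-1 (rank 206, signal 207.8), pfd-6 (rank 257, 185.3), pfd-4 (rank 325, 161.3), pfd-5 (rank 632, 111.6) and pfd-3 (rank 828, 93.27), all with summits upstream, from 20 to 336 bp away. All 5 ranked below cct-8 and cct-1 and above cct-6 and cct-5. The remaining one, pfd-2, had no combined-list region within 1000 bp. None of the 6 genes listed as tubulin folding cofactors had an optimal peak, and tbcb-1 came closest at combined rank 1486. Among client genes, 1 of 5 actins (act-4, rank 1135) and 2 of 16 tubulins (tba-2 at rank 176, and ben-1 at rank 761 with its summit 991 bp downstream) had one. Of the mitochondrial chaperonin, hsp-60 lay at rank 62 with its summit 580 bp upstream, and hsp-10 was not found in the annotation under that symbol. Of 33 proteasome genes, 9 (27.3%) had an optimal peak, led by rpn-3 (rank 125) and pbs-7 (rank 128), followed by rpn-11, pas-4, rpt-2, rpn-9, rpn-2, pas-3 and rpt-4 at ranks 272 to 953. The background is the 6.89% of protein-coding genes given above. In lists this short, the counts of tubulin folding cofactor, actin and tubulin genes are too small to be set apart from it. The median best combined rank was taken only over genes with a combined-list region, so genes with none are left out of it. It was 1704 for all 8 CCT genes, 325 for 5 of 6 prefoldins and 1661 for 31 of 33 proteasome genes. For 11 of 16 tubulins it was 2280, for 5 of 6 tubulin folding cofactors 4557 and for all 5 actins 5102. Over the 10044 of 19973 protein-coding genes with a region it was 8861.5. The lists are short and were drawn up with results of these data known, so the counts are descriptions.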

How the data were processed

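C04F5.9-GFP binding was measured by ChIP-seq in 2 biological replicates, numbered by the labels. Per the file headers, the relaxed lists were made as input for the irreproducible discovery rate. The sources used here give no aligner, caller, version, cutoff or read depth. The signal value deposited by the authors was used only within a list, for ranks, ratios and shares. The −log10 q value and summit offset were also used as deposited by the authors. All 1205 optimal peaks were the same-ranked combined regions. Control alignments and ce10 lists were not analysed here, and no coordinates were converted. All regions lay inside the WBcel235 (ce11) chromosomes, with genes from Ensembl release 115 and sequence from the RefSeq copy of that assembly.

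Distances ran from a summit to the nearest transcript 5′ end of a gene (limit 1000 bp; negative is upstream). A match to the element counted identical fixed letters at the best ungapped position on either strand, the nearest to the summit if tied. The members and lists were chosen with earlier results of these data known, and the element and its minimum of 6 peaks a letter after the sequences were seen. Named genes are the members, genes sharing their best summits, the peaks 2 ranks either side of cct-8 and cct-1, the 5 peaks most like each by 8-base words, and list members with optimal peaks. Genes at the shared 12-base run and tbcb-1 and pfd-2 were named after their values were seen. Alternatives covered windows of 250 and 500 bp, region overlap, the upper part of the optimal list by signal, the most upstream 5′ end and each replicate alone. The scripts were tested on simulated data (Python 3.11.15, NumPy 2.4.6, matplotlib 3.10.9).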

Additional observations from a re-analysis of the deposited data

How the results depend on the processing

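The count of CCT genes with an optimal peak was 4 with windows of 1000 and 500 bp, with any overlap of the region, and with the most upstream 5′ end. It was 1 (cct-1) with a 250 bp window, since the summits of cct-8, cct-6 and cct-5 lie farther upstream, and 2 (cct-8 and cct-1) when the optimal list was limited at its median to the peaks with higher signal, which leaves fewer peaks. The background share of 6.89% was then 3.71% and 3.85%. With as many top regions of a single replicate as the optimal list holds the count was 3 to 3: cct-8, cct-1 and cct-5 without replicate 1, and cct-8, cct-1 and cct-6 without replicate 2. The background was 6.7 to 6.84%. All 8 genes kept a combined-list region, 7 with a 250 bp window. For single genes, a rank or distance counted as moved when it differed from the combined list by more than 1 SD of the replicates, so that a gene with unlike replicates needed a larger difference than a gene with like ones. By this and similar tolerances for counts and matches, 20 of 98 alternatives moved. Among them, the best cct-2 summit lay at -273 bp without replicate 1, against 817 bp, and so changed side. Without replicate 2 it lay at 20 bp, on the same side as 817 bp. The best cct-7 summit changed side without replicate 2, at 463 bp against -297 bp. The cct-3 rank was 21663 without replicate 2, against 11066, and the cct-4 rank 5027 without replicate 1, against 2209. The distances of cct-8 and cct-1 moved by 1 or 2 bp. At 500 bp the tubulins counted 1 and hsp-60 was lost. The match of cct-8 to the first block was 9 of 17 within 25 bp of the summit, where the block lies across the window's edge. With element letters kept from at least 5 peaks (20 positions) cct-8 matched 18 and cct-1 15, and from at least 7 peaks (17 positions) 16 and 15, an alternative chosen after seeing the data. No paired analysis was possible because there was 1 group and no result came from a test. Read depth is unknown, so the precision of single signal values could not be judged. For the weakest regions, the deposited −log10 q values of 0.18 (cct-2) and 0.13 (cct-3) in the combined list do not set them apart from background.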
